A study of Mus musculus with 360 samples.

Results

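Notch signalling passes between touching cells: a ligand on one cell binds a Notch receptor on its neighbour, the receptor is cleaved, and its inner part enters the nucleus to switch on genes of the Hes and Hey families. In the developing organ of Corti, the sensory epithelium of the cochlea, Jag1 marks the prosensory and supporting cells, while nascent hair cells carry Jag2 and Dll1 and so hold their neighbours in the supporting cell fate. Fringe enzymes add a sugar to Notch receptors in the Golgi and change how well they answer Delta and Jagged ligands. The genes described here are 7 members of this system: the Serrate-type ligands Jag1 and Jag2, the Delta-type ligand Dll1, the Delta-like protein Dlk2, and the 3 Fringe enzymes Mfng (manic), Lfng (lunatic) and Rfng (radical). They were taken by gene symbol from a table of 48440 genes, and each symbol matched 1 row.

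The cells came from the cochleae of mice given tamoxifen at 3 weeks of age and dissociated at 5 weeks. In the GAP genotype, Fbxo2CreERT2::Rosa26-tdTomato::Rosa26-GAP, the tamoxifen-activated Cre recombinase drives Atoh1, Gfi1 and Pou4f3 (together GAP), transcription factors of hair cells, in the non-sensory cells where Fbxo2 is active. The control genotype, Fbxo2CreERT2::Rosa26-tdTomato, had the same Cre, red reporter and tamoxifen without the GAP allele. Cells were sorted on tdTomato and EpCAM into 96-well plates and sequenced singly, giving 180 GAP and 180 control cells. GAP cells bear the letters C (92 cells) and D (88) and control cells the letters A (91) and B (89), read here as plate letters, so letter and genotype cannot be told apart.

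No animals are named, so each genotype counts as 1 sample and no test between genotypes or clusters was possible. Values below are unique molecular identifiers (UMIs, tags by which copies made in amplification are counted once) summed over a set of cells and divided by the set's total, per 1000000 UMIs (CPM). Their 95% intervals cover counting error only, not the spread between mice. A gene was called different where the ratio of its CPM values, 1 CPM added to each, reached 2-fold and 1 of the sets had at least 10 CPM. For shares of cells with a UMI, each cell was first thinned to 8000 UMIs, a depth that 3 control cells did not reach. The thinned shares are 1 random draw; for Mfng in GAP cells the share expected over all draws lay outside the interval of the printed one, and it is given there.

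GAP cells held a median of 28963 UMIs (8550 to 60218) and control cells 21280 (6985 to 55129). The GAP label held: Atoh1 stood at 805 CPM in GAP cells and at 0 UMIs in control cells, Pou4f3 at 583 CPM against 0 UMIs, and Gfi1 at 203 CPM against 1 UMI. These gene counts do not separate transgene from native RNA. The authors' cluster table places all but 19 of the 360 cells in 9 clusters, built from the same counts. It names 51 cells "Reprogrammed Hair Cells", 54 "Reprogammed Sup Cells 1", 20 "Reprogrammed Supp Cells 2" (all GAP). The 4 clusters named "WT Cells 1", "WT Cells 2", "WT Cells 3" and "WT Supp Cells", called control-type here, hold 15 GAP cells, the rest being control cells. The summed level of 12 hair cell markers was 2757 CPM in GAP cells and 265 CPM in control cells. It was 4394 CPM in the reprogrammed hair cells and 2367 CPM in the reprogrammed supporting clusters. Of these sums Myo6 made up 1200 and 1333 CPM, and it was the only marker of the list higher in the supporting clusters. A list of 11 supporting cell markers summed to 6010 CPM in GAP cells and 9681 CPM in control cells. In the reprogrammed hair cells the supporting list summed to 5722 CPM, of which Epyc made up 2284 CPM and Cldn9 1098 CPM, against 7118 CPM in the reprogrammed supporting cells. Otog was 77.5 CPM in those hair cells and 844.7 CPM in those supporting cells, Otoa 69.2 and 886.8 CPM, and Slc1a3 24.9 and 373.7 CPM. Sox9 differed less (473.5 and 1004 CPM). Epyc went the other way, at 2284 CPM in the hair cells and 987 CPM in the supporting cells, as did Cldn11 (10.4 and 0.94 CPM). Cldn9 (1098 and 1131 CPM), Gjb2 (748 and 834), Gjb6 (258 and 281) and Sox10 (679 and 763) lay closer together. Sox2 was at 0 UMIs in the hair cells, but at 7 UMIs in all control cells.

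Promoters are printed for the pair of genes whose levels ran most closely together over the clusters (Jag1 and Lfng) and for Jag2 and Dlk2, the genes with the widest ratios to control among those of the ligand family with 10 CPM or more. The table of RefSeq promoters matched 6 of the 7 genes by symbol, all but Mfng. Each window runs from 250 bases before to 50 bases after a RefSeq transcript start on GRCm38.p6, 5′ to 3′ on the gene's strand. Capitals mark matches on either strand to CAGATG or CAGCTG, 2 forms of the E-box that basic helix-loop-helix factors such as Atoh1 can bind, and to TGGGAA, a core bound by Rbpj, the DNA-binding partner of cleaved Notch (TTCCCA on the opposite strand).
Jag1, chr2:137116471-137116770, minus strand: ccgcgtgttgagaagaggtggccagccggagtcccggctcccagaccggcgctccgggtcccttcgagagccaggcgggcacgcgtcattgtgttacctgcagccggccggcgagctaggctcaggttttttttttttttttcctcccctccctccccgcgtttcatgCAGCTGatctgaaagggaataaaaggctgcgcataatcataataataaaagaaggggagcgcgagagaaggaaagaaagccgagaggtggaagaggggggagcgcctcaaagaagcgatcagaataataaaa
Lfng, chr5:140607091-140607390, plus strand: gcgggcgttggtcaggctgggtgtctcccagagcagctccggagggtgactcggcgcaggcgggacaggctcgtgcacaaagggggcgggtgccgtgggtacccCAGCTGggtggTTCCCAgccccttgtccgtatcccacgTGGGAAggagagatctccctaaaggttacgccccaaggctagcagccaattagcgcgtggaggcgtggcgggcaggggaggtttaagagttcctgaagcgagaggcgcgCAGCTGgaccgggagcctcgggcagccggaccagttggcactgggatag
Jag2, chr12:112929446-112929745, minus strand: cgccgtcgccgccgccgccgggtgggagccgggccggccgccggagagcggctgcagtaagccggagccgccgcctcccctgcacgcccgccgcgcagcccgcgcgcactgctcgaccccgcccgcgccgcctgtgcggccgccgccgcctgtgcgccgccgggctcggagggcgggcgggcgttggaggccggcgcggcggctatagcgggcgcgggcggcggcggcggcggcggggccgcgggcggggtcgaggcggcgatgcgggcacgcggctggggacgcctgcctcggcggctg
Dlk2, chr17:46297233-46297532, plus strand: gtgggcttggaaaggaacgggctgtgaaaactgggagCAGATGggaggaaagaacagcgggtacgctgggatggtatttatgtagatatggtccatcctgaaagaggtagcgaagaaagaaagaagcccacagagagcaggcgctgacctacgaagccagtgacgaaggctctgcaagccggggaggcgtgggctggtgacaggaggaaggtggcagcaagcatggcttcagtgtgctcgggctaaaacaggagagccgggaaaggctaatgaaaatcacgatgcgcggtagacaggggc
The Jag1 window held 1 CAGCTG, 82 bases before the start. The Lfng window held 2 CAGCTG, the nearer 1 base after the start, and 2 TGGGAA, both before it. The Dlk2 window held 1 CAGATG, 213 bases before the start, and the window of the other Dlk2 start in the table held none of the 3 motifs. In Jag2, whose window was 86% G and C, none of the motifs occurred. Of 32851 windows of this length, 17.2% held CAGATG, 16.3% CAGCTG and 25.6% TGGGAA, so matches of this kind are common. They describe letters and not binding.

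Across the genotypes, 5 of the 7 genes were at least 2-fold higher in GAP cells (Jag1, Jag2, Dlk2, Mfng and Lfng), against 13% of the 10152 genes compared. None of the 7 was at least 2-fold lower, against 6.61% of all genes. Dll1 stayed under 10 CPM in both genotypes, and 6 of the 7 genes passed that filter. Dlk2 and Mfng, with 2 and 0 control UMIs, passed it only through GAP cells, so for them passing already meant being higher. In these 5 genes both GAP letters lay above both control letters, a pattern that 33.7% of all compared genes shared. Rfng was the only member with both GAP letters below both control letters, as were 23.5% of all genes.

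**Figure D1:**
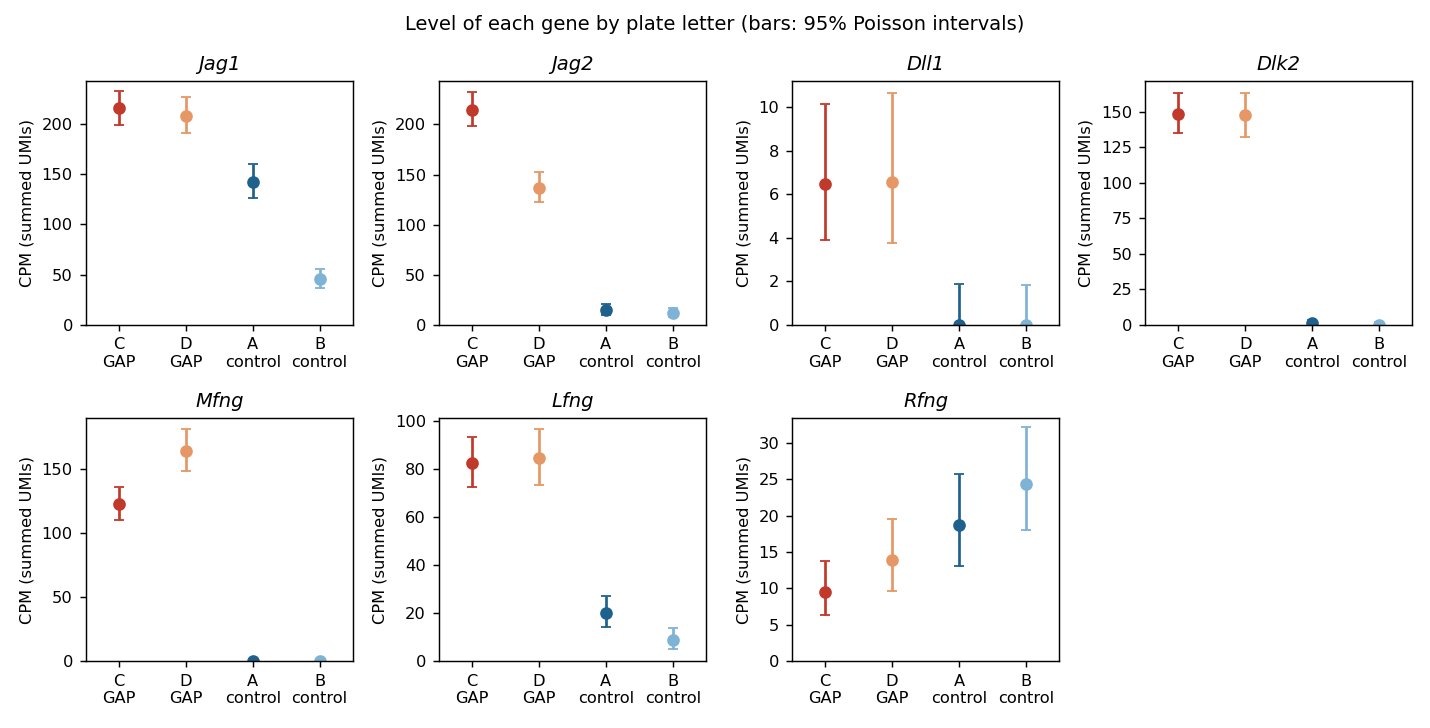
Level of each gene in CPM of summed UMIs by plate letter (C and D are GAP, A and B control). Points are the summed level of all cells of a letter and bars 95% Poisson intervals. Mfng was at 0 in both control letters, while Jag1 differed more between the control letters (142.6 CPM in A, 45.1 CPM in B) than between the GAP letters.

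Among the ligands, Jag1, which lies on chromosome 2 at 137081456 to 137116644 (mm10, minus strand, 25 exon blocks), averaged 212 CPM in GAP cells (95% interval 200.3 to 225) and 93.5 CPM in control cells (84.2 to 103.4). The ratio was 2.27 (2.02 to 2.56). On the log2 scale with 1 CPM added it was 1.18 from all UMIs and 1.02 from per-cell means. Thinned to 8000 UMIs it was 0.81, short of the 2-fold call, and thinned to 4000 UMIs 1.18. Letters C and D stood at 216 and 209 CPM, against 142.6 CPM in A and 45.1 CPM in B. The GAP letters were close to each other, but the control letters were not, and the ratio was 4.71 without letter A and 1.49, short of the 2-fold call, without letter B. At 8000 UMIs, 51.1% of GAP cells and 29.4% of control cells had a Jag1 UMI.

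The control cells' Jag1 sat largely in 1 cluster. The 29 control cells of "WT Supp Cells" held 477 CPM (416 to 545), against 43.8 CPM in the other control cells, which is 10.9 times as much (8.84 to 13.5). That cluster drew 20 control cells from letter A and 9 from letter B. Outside it, letter A still stood at 62.3 CPM and letter B at 27.5 CPM.

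Jag1 was divided unevenly among the reprogrammed cells. "Reprogrammed Supp Cells 2" held 722 CPM and "Reprogammed Sup Cells 1" 274 CPM, against 477 CPM in the control cells of "WT Supp Cells", which makes the first 1.51-fold higher (1.26 to 1.82) and the second 1.74-fold lower (1.48 to 2.04). All 20 cells of "Reprogrammed Supp Cells 2" had a Jag1 UMI at 8000 UMIs, as did 82.8% of the control "WT Supp Cells". The reprogrammed hair cells (interval 58.8 to 87.2 CPM) stood 4.82-fold below the 347 CPM of the reprogrammed supporting cells (3.92 to 5.97). This gap was 5.61-fold within letter C and 4.43-fold within letter D. Against all control cells of control-type clusters (90.3 CPM) the reprogrammed hair cells were 1.254-fold lower (1.001 to 1.58). Against the control cells of "WT Cells 1" alone, at 28.3 CPM, they were higher, by 1.32 on the log2 scale. The direction against all control-type control cells also turned with the letter left out, at a log2 ratio of 0.82 without A and -0.99 without B.

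Jag2 (chromosome 12, 112907819 to 112929776, minus strand, 24 exon blocks) showed the wider difference of the Jagged pair. GAP cells held 179.3 CPM (168.1 to 191) and control cells 12.996 CPM (9.71 to 17.04). That is a 13.8-fold ratio (10.4 to 18.6). The levels were 215 CPM in letter C and 136.7 CPM in letter D, against 14.6 CPM in A and 11.4 CPM in B. Both GAP letters lay far above both control letters. A Jag2 UMI was present in 50.6% of GAP cells and 6.21% of control cells at 8000 UMIs.

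Reprogrammed hair cells and reprogrammed supporting cells carried Jag2 at 190 and 214 CPM, against 12.2 CPM in control cells of control-type clusters. Hair cells to supporting cells gave a ratio of 0.886 (0.760 to 1.03), but it turned with the letter, at 1.36 within C and 0.563 within D. Among the hair cells Jag2 was 304 CPM in the 20 cells of letter C and 114.6 CPM in the 31 cells of letter D. The control cells of "WT Supp Cells" had 0 Jag2 UMIs in 29 cells, which by a floor of 3 counts allows a share of cells with a UMI of up to 10.3%. Set against 3 counts over that set, Jag2 was at least 34.4-fold higher in "Reprogammed Sup Cells 1" and at least 24.2-fold higher in "Reprogrammed Supp Cells 2". The 15 GAP cells of control-type clusters held 5 Jag2 UMIs, or 14.6 CPM, against 12.2 CPM in the control cells there, and their Atoh1 was 93.2 CPM. With so few UMIs the direction rested on the letter, with a log2 ratio of -1.09 without C and 1.06 without D.

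The ligand balance followed from these levels. Of all Jag1 and Jag2 UMIs, Jag2 made up 45.8% in GAP cells (43.6 to 47.9) and 12.2% in control cells (9.25 to 15.7). The share was 72.5% in reprogrammed hair cells (67.7 to 76.9), 45.03% in "Reprogammed Sup Cells 1" (41.7 to 48.4) and 17.9% in "Reprogrammed Supp Cells 2" (13.8 to 22.8). It was 0 of 219 UMIs in the control cells of "WT Supp Cells", where the interval reached 1.67%. In the other control cells it was 25.1%, but these were not alike. Control cells of "WT Cells 2" stood at 50% of 36 UMIs (32.9 to 67.1), an interval that held the share of "Reprogammed Sup Cells 1". Both ligands were low there, at 22.2 CPM each. The share was 27.3% in control cells of "WT Cells 1" and 18.75% in those of "WT Cells 3". A high Jag2 share was thus not confined to reprogrammed cells. The order of the 3 reprogrammed clusters was the same within each GAP letter: 83.3%, 45.6% and 19.7% in C, and 59.2%, 44.4% and 16.2% in D. Per kilobase of exon, reprogrammed hair cells had 27.2 CPM per kb of Jag2 and 12.4 of Jag1. The reprogrammed supporting cells had 30.7 CPM per kb of Jag2 and 59.5 of Jag1. Whether UMIs scale with transcript length in this protocol was not tested.

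**Figure D2:**
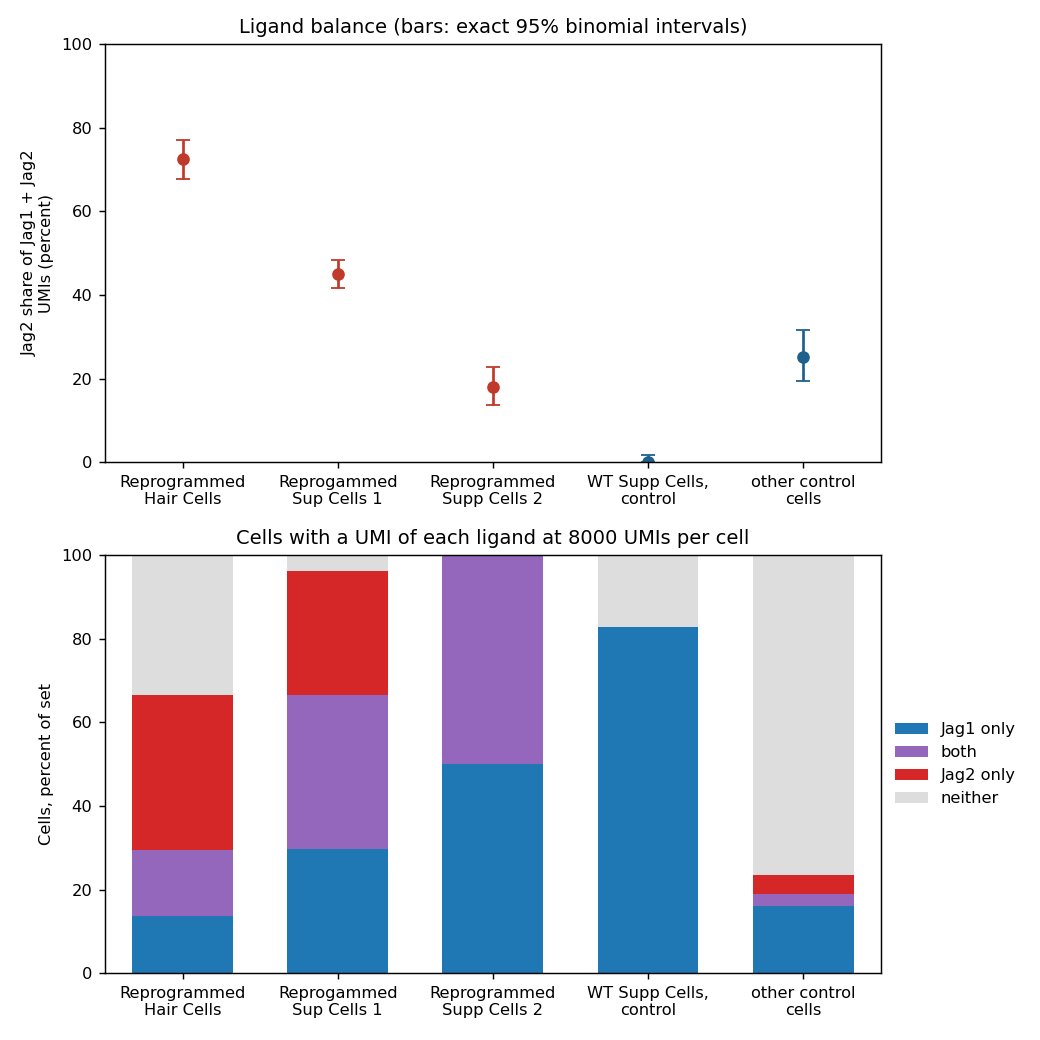
Upper panel, Jag2 as a percent of Jag1 and Jag2 UMIs in 5 sets of cells, with exact 95% binomial intervals; GAP clusters are red and control sets blue. Lower panel, percent of cells with a UMI of Jag1 only, both, Jag2 only or neither at 8000 UMIs per cell; the purple segment, cells with both, is absent from control "WT Supp Cells".

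The ligands were also read together in single cells. At 8000 UMIs, 20 of the 54 cells of "Reprogammed Sup Cells 1" had both ligands, 16 Jag1 only, 16 Jag2 only and 2 neither. In "Reprogrammed Supp Cells 2", 10 of 20 had both and the other 10 Jag1 only. Of the 51 reprogrammed hair cells, 19 had Jag2 only, 8 both, 7 Jag1 only and 17 neither. Cells with both ligands numbered 43 of 180 among GAP cells and 4 among control cells. None of the 29 control "WT Supp Cells" had both, and 24 had Jag1 only.

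Dll1 (chromosome 17, 15367354 to 15376872, minus strand), the Delta ligand of nascent hair cells, was low wherever it appeared. GAP cells held 35 UMIs, or 6.52 CPM (4.54 to 9.07), and control cells 0 UMIs, which makes GAP cells at least 8.70-fold higher against a floor of 3 counts over the control cells. Letters C and D were at 6.48 and 6.57 CPM, against 0 UMIs in A and B. The reprogrammed hair cells held 9 Dll1 UMIs and "Reprogammed Sup Cells 1" 10, while "Reprogrammed Supp Cells 2" held 0. Before thinning 10% of GAP cells had a UMI, and at 8000 UMIs 4.44% did. Of its 4219 exon bases, 867 overlap exons of A930024N18Rik on the opposite strand. Whether counting used strand is not given in the sources used here, so reads of the overlap cannot be assigned between them.

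Dlk2 (chromosome 17, 46297421 to 46303271, plus strand), a membrane protein related to Delta that lacks the domain by which Delta ligands activate Notch, was close to a GAP-only signal. GAP cells held 147.96 CPM (137.8 to 158.6; 794 UMIs) and control cells 2 UMIs, both in 1 cell of letter A, a ratio of 296 with a counting interval of 81.7 to 2449. The GAP letters were even, 148.5 CPM for letter C and 147.4 CPM for letter D, against 1.01 CPM for A and 0 UMIs for B. "Reprogammed Sup Cells 1" held 200.03 CPM, the reprogrammed hair cells 132.9 CPM and "Reprogrammed Supp Cells 2" 102.4 CPM, while the control cells of control-type clusters held 0 UMIs. Relative to 3 counts over those cells, the hair cells were at least 152.6-fold higher. The 15 GAP cells of control-type clusters held 6 Dlk2 UMIs, 4 of them in 1 cell. Dlk2 was 70.02 CPM per kb of exon in GAP cells. Its exons share 51 bases with Abcc10 on the opposite strand.

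**Figure D3:**
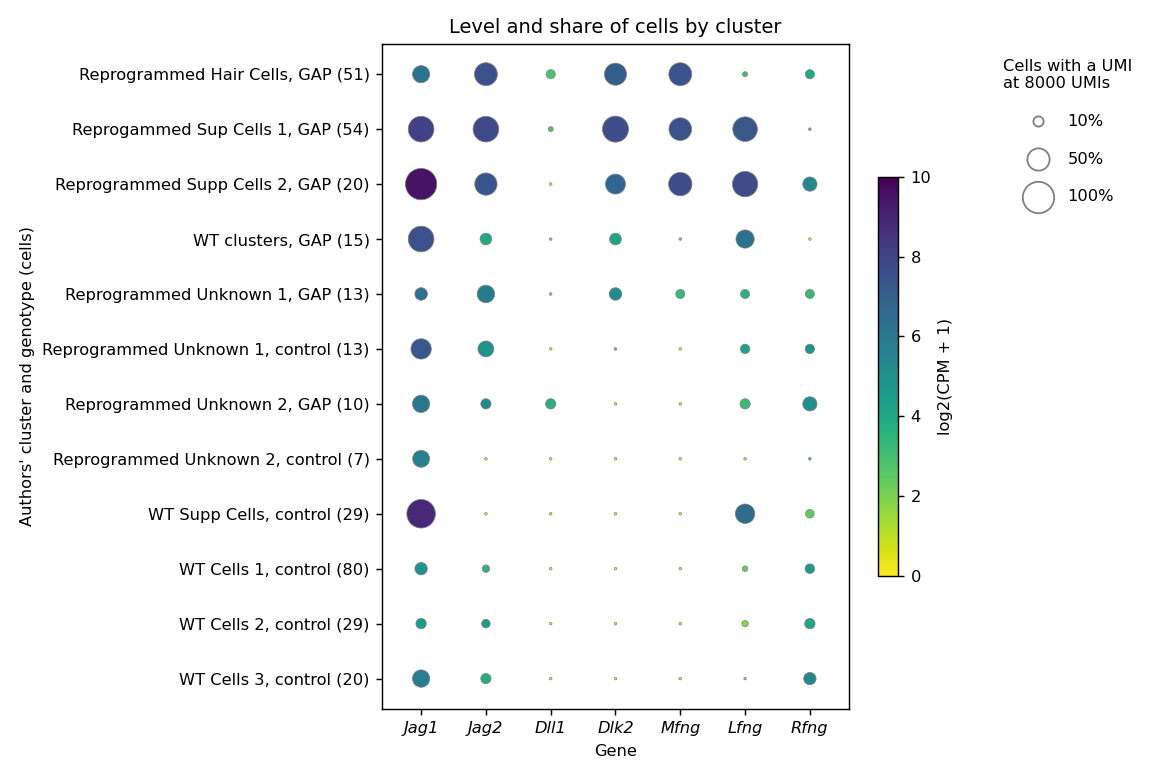
Each dot is 1 gene (columns) in 1 of the authors' clusters, split by genotype where both were present (rows, with the number of cells). Colour is log2(CPM + 1) of summed UMIs and dot area the percent of cells with a UMI at 8000 UMIs; Mfng and Dlk2 fill the 3 reprogrammed hair and supporting rows and are small or empty elsewhere.

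Of the Fringe genes, Mfng (chromosome 15, 78755882 to 78773475, minus strand) was the one without a single control UMI. GAP cells held 757 UMIs, or 141.1 CPM (131.2 to 151.5), and control cells 0 UMIs in 180 cells, which puts GAP cells at least 188-fold higher. Letter C held 122.2 CPM and letter D 163.8 CPM, against 0 UMIs in A and B. It was spread over 70% of GAP cells before thinning and 42.2% in the draw at 8000 UMIs, where 49.8% were expected, and the richest cell held 2.64% of its UMIs. The 3 reprogrammed clusters lay near one another: 175.1 CPM in hair cells, 179.7 CPM in "Reprogammed Sup Cells 1" and 205 CPM in "Reprogrammed Supp Cells 2". Hair cells to supporting cells gave a ratio of 0.953 (0.810 to 1.12), with 1.44 within letter C and 0.679 within letter D. The GAP cells of the other clusters had little, with 1 UMI in the 15 cells of control-type clusters. The 13 of "Reprogrammed Unknown 1" held 3 UMIs and the 10 of "Reprogrammed Unknown 2" 0 UMIs. The 17 GAP cells without a cluster, however, held 128.1 CPM of Mfng.

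Lfng (chromosome 5, 140607320 to 140615545, plus strand), which marks supporting cells of the developing cochlea, divided the reprogrammed cells more sharply than any other member. Reprogrammed hair cells held 10 UMIs, or 6.92 CPM, and reprogrammed supporting cells 344 UMIs, or 162.5 CPM, a 23.5-fold gap (12.6 to 49.4). The gap was 23.9-fold within letter C and 22.9-fold within letter D. At 8000 UMIs, 1.96% of the hair cells had a Lfng UMI, against 62.2% of the supporting cells, where 5.91% and 59.4% were expected over all draws.

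Over the genotypes, Lfng averaged 83.5 CPM in GAP cells and 14.5 CPM in control cells, 5.76-fold apart (4.37 to 7.71). Letters C and D stood at 82.6 and 84.6 CPM, against 20.2 CPM for A and 8.92 CPM for B, and the ratio was 9.36 without A and 4.14 without B. Like Jag1, control Lfng lay mostly in "WT Supp Cells", with 91.5 CPM there and 4.52 CPM in the other control cells, a ratio of 20.3 (11.2 to 38.6). Compared with those control supporting cells, "Reprogammed Sup Cells 1" was 1.67-fold higher (1.21 to 2.38) and "Reprogrammed Supp Cells 2" 2.30-fold higher (1.55 to 3.45). Reprogrammed hair cells were 2.18-fold lower than all control cells of control-type clusters (1.10 to 4.81). That call rests on "WT Supp Cells", which held 42 of the 52 control UMIs: against "WT Cells 1" alone the log2 ratio was 0.63, higher in the hair cells, and the call was lost without letter A.

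Rfng (chromosome 11, 120780746 to 120784207, minus strand) ran the other way at a low level. GAP cells held 62 UMIs, or 11.6 CPM (8.86 to 14.8), and control cells 86 UMIs, or 21.5 CPM (17.2 to 26.5), which is 1.86-fold lower in GAP cells (1.33 to 2.62). Letter C was at 9.56 CPM and letter D at 13.96 CPM, against 18.6 CPM for A and 24.3 CPM for B. The intervals of D and A overlapped, and the gap passed 2-fold without letter A or without letter D. At equal depth it narrowed, to a log2 ratio of -0.41 at 8000 UMIs and -0.11 at 4000 UMIs, against -0.84 from all UMIs. 1 control cell held 12.8% of the control UMIs. At 8000 UMIs, 6.67% of GAP cells and 9.04% of control cells had a Rfng UMI. The 2 reprogrammed supporting clusters differed, with 40.9 CPM in "Reprogrammed Supp Cells 2" (14 UMIs, 5 of them in 1 cell) and 4.51 CPM in "Reprogammed Sup Cells 1" (8 UMIs).

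Set side by side per kilobase of exon, a scale that assumes UMIs grow with transcript length, the levels in GAP cells ran Dlk2 (70.02 CPM per kb), Mfng (49.7), Jag1 (36.5), Lfng (33.3), Jag2 (25.7), Rfng (4.64) and Dll1 (1.55). The counting intervals of the neighbours Jag1 and Lfng overlapped in this order, and those of the other neighbours did not. In control cells the order was Jag1 (16.04 CPM per kb), Rfng (8.64), Lfng (5.79), Jag2 (1.87) and Dlk2 (0.24), with Mfng and Dll1 at 0 UMIs. There the intervals of Rfng and Lfng overlapped. The order depends on that division: undivided, Jag1 (212 CPM) and Jag2 (179.3 CPM) stood above Dlk2 (147.96 CPM) and Mfng (141.1 CPM) in GAP cells.

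**Figure D4:**
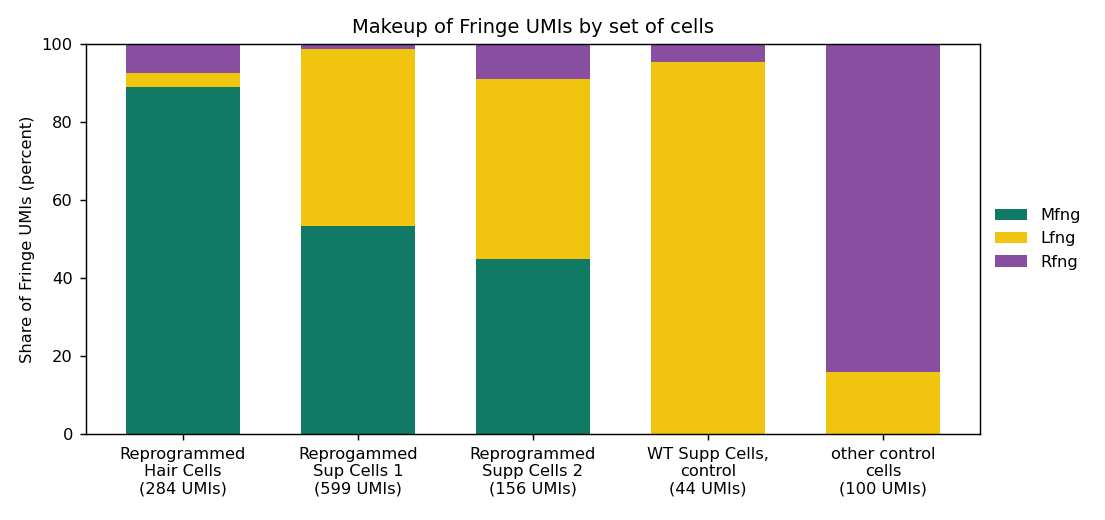
Share of Fringe UMIs that were Mfng, Lfng or Rfng, in percent, in 3 GAP clusters (left) and 2 sets of control cells (right), with the number of Fringe UMIs below each bar. Mfng is present in the 3 GAP bars and in neither control bar.

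The makeup of the Fringe UMIs differed between the genotypes and between some sets of cells, while other sets were alike. In GAP cells 59.7% of 1267 Fringe UMIs were Mfng, 35.4% Lfng and 4.89% Rfng, against 0%, 40.3% and 59.7% in control cells. Mfng made up 89.1% of the Fringe UMIs of the reprogrammed hair cells, with Lfng at 3.52%. The reprogrammed supporting cells were split between Mfng (51.5%) and Lfng (45.6%). The pooled Lfng share was close in the 2 reprogrammed supporting clusters, 45.4% in "Reprogammed Sup Cells 1" and 46.2% in "Reprogrammed Supp Cells 2". Their Rfng shares were not, at 1.34% (0.58 to 2.61) and 8.97% (4.99 to 14.6). Lfng varied with the letter, at 50.7% in C and 40.8% in D for the first and 57.5% and 36.1% for the second. In control "WT Supp Cells" Lfng made up 95.5% of 44 UMIs, and in the other control cells Rfng made up 84% of 100 UMIs. GAP cells of "WT Supp Cells" had a like share of Lfng, 95% of 20 UMIs. Rfng led in control cells of "WT Cells 1" (84.4%), "WT Cells 2" (86.7%) and "WT Cells 3" (95%). It also led in GAP cells of "Reprogrammed Unknown 2" (80% of 10 UMIs).

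Counted by cluster, 3 of the 7 genes were at least 2-fold higher in the reprogrammed hair cells than in control cells of control-type clusters (Jag2, Dlk2 and Mfng), against 17.5% of all genes, and 1 was lower (Lfng), against 11.9%. In the reprogrammed supporting cells 5 were higher (Jag1, Jag2, Dlk2, Mfng and Lfng), against 13.8% of all genes, and 0 were lower, against 10.2%. In both comparisons Dlk2 and Mfng, at 0 UMIs in those control cells, passed the 10 CPM filter only through the reprogrammed cells. Relative to "WT Supp Cells" alone, however, Jag1 in the reprogrammed supporting cells was 1.38-fold lower (1.18 to 1.60). Lfng fell short of the 2-fold call there (log2 ratio 0.82), and Rfng, with 22 UMIs against 2, turned to 1.09 from the -0.94 against all control-type control cells. Between reprogrammed hair and supporting cells 0 members were at least 2-fold higher in hair cells, against 10.4% of all genes, and 2 were lower (Jag1 and Lfng), against 9.14%. Among cells of control-type clusters, the 15 GAP cells had 3 members at least 2-fold higher than the control cells (Jag1, Dlk2 and Lfng), against 12.5% of all genes, and 1 lower (Rfng, 0 UMIs), against 15.6%. Dlk2 (6 UMIs against 0) passed the 10 CPM filter here only through the GAP cells, and Rfng (0 UMIs against 72) only through the control cells. For both, passing already set the direction. There Jag1 was 186 CPM in GAP cells and 90.3 CPM in control cells, and Lfng 75.7 CPM in GAP cells and 15.1 CPM in control cells. The Jag1 call, at a log2 ratio of 1.04, was lost without letter B (0.37) or C (0.58), with either other scaling (0.97 and 0.99), from per-cell means (0.93), at 8000 UMIs (0.74) and with 10 CPM added (0.97). The Dlk2 call was lost without letter D. Of the 26 Lfng UMIs of these GAP cells, 19 were in 4 cells of "WT Supp Cells".

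Over 10 sets of cells (clusters, split by genotype, with at least 10 cells), the closest members were Jag1 and Lfng, with a Pearson's r of log2(CPM + 1) of 0.96, and Dlk2 and Mfng, with 0.94. Jag2 followed with Mfng (0.82) and Dlk2 (0.78). Lfng and Jag1 stood between 0.56 and 0.66 with Dlk2 and Mfng, while Jag1 and Jag2 had an r of 0.19 and Rfng was highest with Jag2, at 0.066. The sets share plates and were clustered on the same counts, so these are descriptions. The genes most like Jag1 over those sets, among 10084 compared, were Epb41l2 (r = 0.949), Nckap5 (0.943) and Plxnb3 (0.936). Those most like Jag2 were Lsm12 (0.948), Uhrf2 (0.935) and Heg1 (0.925). Thsd7b headed the list of both Mfng (0.988) and Dlk2 (0.955), and Mdga1 stood in both as well (0.966 and 0.938). The third genes were Grp for Mfng (0.964) and Neurl1a for Dlk2 (0.94). Lfng was most like Tctn1 (0.951), Slc6a14 (0.938) and Map7d2 (0.912). For Rfng they were Gga3 (0.881), Bbs4 (0.866) and Kif1b (0.864).

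**Figure D5:**
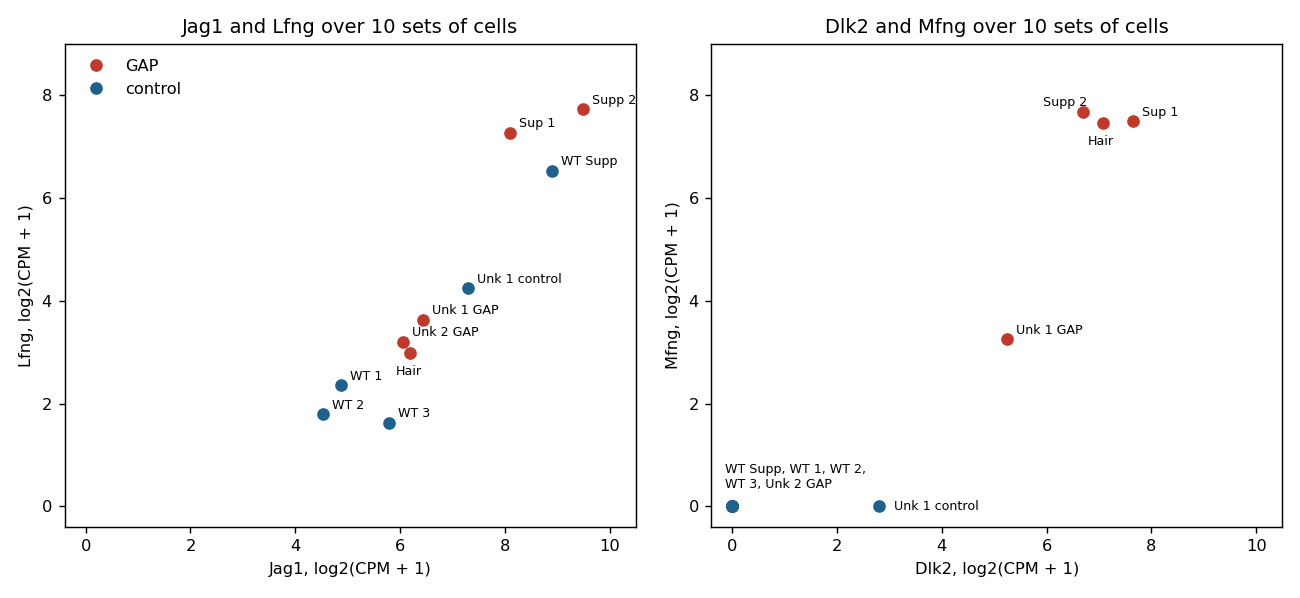
Each point is 1 set of cells of a cluster and genotype (GAP red, control blue), placed by log2(CPM + 1) of 2 genes. Jag1 and Lfng (left) range over GAP and control sets alike, while Dlk2 and Mfng (right) separate the 3 reprogrammed hair and supporting clusters from the rest.

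The rest of the Notch pathway was read from a list of 47 genes. Of these, 40 passed 10 CPM, 10 were at least 2-fold higher in GAP cells, against 13% of all genes, and 0 at least 2-fold lower, against 6.61%, and their median log2 ratio was 0.46 against 0.10 over all genes compared. By role, the higher genes were 1 of 3 receptors, 1 of 4 genes of ligand endocytosis and 1 of 1 other ligands that passed. They also held 2 of 6 glycosylation genes and 5 of 9 genes listed as targets, Hes6 among them. None of 8 cleavage genes, 5 nuclear complex genes or 4 antagonists was higher. The roles were set by the list, which also counts Id1, Id2 and Id3 as targets, and whether a listed gene answered Notch was not tested. Notch3 and Neurl1a (0.75 CPM each in control cells) and Dll3 and Hes5 (0 UMIs there) passed the filter only through GAP cells. For them, passing already meant being higher, so the 1 of 1 other ligands was set by the filter.

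Neurl1a, an E3 ligase that acts on Notch ligands, was 36.2 CPM in GAP cells and 0.75 CPM in control cells (3 UMIs), with a ratio of 48.2 (16.3 to 236). Dll3, a Delta-family member that does not activate Notch from a neighbouring cell, was 10.6 CPM in GAP cells and 0 UMIs in control cells, and its level was 24.9 CPM in reprogrammed hair cells against 1.42 CPM in reprogrammed supporting cells. The Dll3 call was lost without letter C, from per-cell means and at 8000 or 4000 UMIs, and letter D alone stood at 7.39 CPM. Gxylt2, which adds xylose to O-glucose on Notch, was 78.1 CPM in GAP cells and 11.5 CPM in control cells, with 203 CPM in reprogrammed hair cells against 25.04 CPM in reprogrammed supporting cells. Dll3 and Gxylt2 were thus also higher on the hair cell side of the reprogrammed cells. Xxylt1, the enzyme that extends that xylose, was 44.5 CPM in GAP cells and 20.2 CPM in control cells, a ratio of 2.20 that fell short of 2-fold without letter A (1.87) or C (1.76). The Neurl1a ratio was 72.9 without letter A.

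On the receiving side, Notch1 was 489 CPM in GAP cells and 281 CPM in control cells (ratio 1.74). Notch2 was 216 CPM in GAP cells and 180 CPM in control cells, and its ratio of 1.20 became 0.889 without letter C. Notch3 was 12.9 CPM in GAP cells and 0.75 CPM in control cells, where its 3 UMIs were all in letter A. Of the genes listed as targets, Heyl, Hey1 and Hes1 were 7.60-fold, 4.91-fold and 2.88-fold higher in GAP cells, and Hes6 was 3.81-fold higher. Hes5 was 22.9 CPM in GAP cells against 0 UMIs in control cells. Leaving out a control letter moved 2 of these by over 1.5 times: Hey1 was 8.32-fold higher without A and 3.47-fold without B, and Hes6 7.67-fold without A and 2.52-fold without B. Hes5, a classical Notch target of supporting cells, was 2.77 CPM in reprogrammed hair cells and 39.2 CPM in reprogrammed supporting cells. Hey1 ran the same way (61.6 and 182.8 CPM). Hes1 (94.1 and 107.2 CPM), Heyl (497 and 648) and Hes6 (42.2 and 60.5) lay closer. Hey2 was higher in the hair cells (84.5 and 48.2 CPM).

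Markers of other cell types also differed between the genotypes. A list of 7 endothelial and pericyte genes, cell types that can also carry Jagged ligands, summed to 141.1 CPM in GAP cells (5 of 7 with a UMI; 128.7 CPM in letter C and 155.99 in D) and 24.99 CPM in control cells (3 of 7; 49.4 CPM in A and 0.99 in B). The sum was 120.5 CPM in reprogrammed hair cells and 181.9 CPM in reprogrammed supporting cells, against 8.71 CPM in control cells of control-type clusters. Rgs5, a pericyte marker, made up most of it, with 97.6 CPM in GAP cells and 4 UMIs in control cells. Pecam1 was 15.5 CPM in GAP cells and 5.998 CPM in control cells, Kdr 23.7 and 17.99 CPM, and Cdh5 and Cldn5 were at 0 UMIs in both. Fibroblast markers summed to 154.7 CPM in GAP cells and 355 CPM in control cells. Neuron markers summed to 20.3 CPM in GAP cells and 0.25 CPM in control cells, and cell cycle genes to 32.1 and 1.999 CPM, with 70.9% of the GAP cell cycle sum in 1 cell. Erythroid markers summed to 97.5 CPM in GAP cells, 75.5% of it in 1 cell, and 0.25 CPM in control cells. Glia markers were 121.1 and 132.7 CPM and leukocyte markers 11.9 and 13.5 CPM. The part of these markers, and of the deeper GAP libraries, in the levels above was not tested.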

How the data were processed

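Single cells from adult mouse cochlea were processed by the SMART-MATQ protocol, per the labels' protocols. The authors deposited raw UMI counts per gene and cell over exons, and a table that gives each cell a cluster. STAR, HTSeq and the mm10 build are named in the submitters' processing notes; the sources used here give no versions, annotation or strand setting. No cell was filtered out here and no doublet caller was run; 19 cells without a cluster enter the genotype sums only. No 2 cells had identical counts, and 0 columns belonged to no sample.

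Genotype and letter were read from the labels. Counts were summed per set and scaled to CPM, and coordinates and exon lengths came from GENCODE M21. Levels have exact Poisson and shares exact Clopper-Pearson 95% intervals; a ratio has an exact conditional binomial interval, and a set at 0 was given a floor of 3 counts over the set. These cover counting error only. The calculations used Python 3.11.15, numpy 2.4.6 and scipy 1.17.1, and edgeR 4.0.16 supplied only the trimmed mean of M values, an alternative scaling. The ratio code was tested on simulated data.

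Named in the text are the 7 members; pathway genes at 10 CPM or more and 2-fold apart (at most 12), with Notch1, Notch2, Notch3, Hes1, Hes5, Heyl and Hey1; and, for each member with 100 UMIs, the 3 genes of highest Pearson r over the cluster sets, among genes reaching 20 CPM. The members and lists were chosen with earlier results of these data known. Alternatives were other scalings, per-cell means, thinning to 8000 or 4000 UMIs, another pseudocount (10 CPM), other filters (50 CPM or none), each letter left out, and the largest cluster of each class; 2 were added after seeing the data.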

Additional observations from a re-analysis of the deposited data

How the results depend on the processing

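Cells are not replicates here, so stability means that a value stayed within its counting interval, or a count within 1.5 times. The 5 members higher in GAP cells stayed between 4 and 5 in number under the alternatives run. Jag1 was the member lost, at 8000 UMIs and without letter B. Rfng became at least 2-fold lower without letter A or D (0 to 1 members lower over the letters left out). In reprogrammed hair cells against control-type control cells, the single lower member, Lfng, was lost (0 lower) after thinning to 4000 UMIs, with 10 CPM added, and against "WT Cells 1" alone; leaving letters out gave 0 to 2. The Lfng log2 ratio turned to 0.82 after thinning to 4000 UMIs and to 0.63 against "WT Cells 1". In reprogrammed supporting cells, Rfng became the 1 lower member with the trimmed mean of M values, with median of ratios and with the largest clusters only (0 to 1 with letters left out). Against control "WT Supp Cells", an alternative chosen after seeing the data, the Jag1 log2 ratio turned to -0.46, the Lfng call was lost and Rfng became higher. Between hair and supporting cells 1 member became higher after thinning to 8000 UMIs (Dll1) and with the largest clusters (Rfng). Within control-type clusters 2 members (Jag2 and Rfng) were lower after thinning to 4000 UMIs, and 1 to 2 with letters left out. The cause of these turns was not tested beyond the sets named.

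The Jag2 percent of GAP cells was 40.9 when per-cell CPM values were averaged, 39.6 when thinned to 8000 UMIs and 33.2 after thinning to 4000 (39.6 to 49.9 with letters left out). In reprogrammed supporting cells these were 32.7, 30.6 and 28.8, with 45.03 and 17.9 for the 2 clusters apart (chosen after seeing the data). In reprogrammed hair cells it was 55.3 after thinning to 4000 UMIs, where 47 ligand UMIs remained, and 59.2 to 83.3 with letters left out. Control cells gave 9.29 to 20.2. In each of these settings the hair cells stayed above the supporting cells. For the Notch list, 4 genes were higher with a filter of 50 CPM. Genes lower numbered 1 without a filter (Notch4), and 1 with either other scaling and either thinning (Gxylt1), and 1 to 2 with letters left out. Its median log2 ratio was 0.26 with the 50 CPM filter, 0.31 without one, 0.32 from per-cell means, 0.30 at 8000 UMIs, and 0.33 to 0.48 with letters left out. Of 35 shares of cells with a UMI at 8000 UMIs, 15 left their interval at 4000 UMIs and 21 without thinning, and 1 (Mfng in GAP cells) differed from the expectation at the same 8000 UMIs. Depth limits Dll1 and Rfng most, with 35 Dll1 UMIs in all and 62 and 86 Rfng UMIs in GAP and control cells. No paired analysis was possible because replicate numbers only name wells, no animals are named, and no test was made.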

Other observations

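Jag1 and Jag2 were also present in the clusters that the authors named unknown, which hold cells of both genotypes. In "Reprogrammed Unknown 1", Jag2 was 56.9 CPM in its 13 GAP cells and 29.9 CPM in its 13 control cells, and Jag1 85.4 CPM in GAP cells and 155.6 CPM in control cells. Jag2 made up 40% of Jag1 and Jag2 UMIs in those GAP cells (26.4 to 54.8) and 16.1% in those control cells (8.02 to 27.7). Dlk2 was 37.01 CPM in the GAP cells, and the cluster's control cells held both control Dlk2 UMIs, in 1 cell.

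The 17 GAP cells without a cluster held 42346 to 60218 UMIs each. Their levels were 222 CPM of Jag1, 231 CPM of Jag2, 223 CPM of Dlk2, 128.1 CPM of Mfng and 71.6 CPM of Lfng, and 11 of the 35 Dll1 UMIs of all GAP cells were theirs, 6 of them in 1 cell. They enter the genotype sums and no cluster comparison.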
